A study of Homo sapiens with 6 samples.

Results

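The genes described here are 33 members of the NF-kappaB system. They include the transcription factor subunits and a list of inhibitors, feedback regulators and other genes tied to the pathway. The rest are interleukins, colony stimulating factors, chemokines and acute phase proteins that the subunits switch on. The members are a list of names looked up among the 29123 gene names carried by the arrays, a list drawn up with earlier results of these data known, and all 33 were found, on 42 probes. Where a gene had several probes, which applied to 9 members, the brightest one was used. NF-kappaB dimers are held in the cytoplasm by inhibitor proteins of the I-kappaB family until receptors for tumour necrosis factor, interleukin-1 or bacterial products activate the IKK kinase, which marks the inhibitor for destruction. The released dimers bind kappaB sites in DNA and induce cytokines, and they also induce their own inhibitors, which closes a negative feedback loop. Ovarian carcinoma cells are known to make several of these cytokines, IL6 among them.

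RNA of 2 established human ovarian adenocarcinoma lines was compared on 6 two-colour arrays, and each array carried the RNA of a modified clone and that of the control clone (Ctrl) of the same line. SKOV3 clones sh-S1 and sh-S2 had been infected with lentivirus of the pLKO.1-puro vector encoding shRNA against Hic-5, a focal adhesion adaptor encoded by TGFB1I1, and the SKOV3 Ctrl was a clone described as mock-transfected, made with the same vector encoding a scramble sequence. The A2780s clone pCMV-Hic-5 expressed human Hic-5 from the pCMV6 vector, and its Ctrl was a clone with the empty vector. The study picked its sh clones by Hic-5 mRNA and protein, measured by other assays that are not analysed here. Every RNA came from 1 selected clone grown in serum-containing medium, and no cytokine was added. Each pair of RNAs was hybridised on 2 arrays with the dyes exchanged, which count as 1 replicate, so SKOV3 has n = 2 clones against the same Ctrl RNA and A2780s has 1 comparison with no test. Ratios below are log2 of modified clone over Ctrl, and a negative value means less signal in the modified clone. In bulk RNA, fewer cells expressing a gene and less RNA per cell cannot be told apart.

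Spots well above background made up 88.8 to 94.5% of the probe spots in Cy3 and 43.7 to 63.6% in Cy5 on the SKOV3 arrays, and 74.3 to 88.0% on the A2780s arrays. The median signal above background on the SKOV3 arrays was 373.39 to 530.45 in Cy3 and 9.52 to 25.5 in Cy5. The TGFB1I1 probe was not lower in either RNA labelled as a knockdown clone, with ratios of -0.16 and 0.12 for sh-S1, -0.11 and 0.28 for sh-S2, and a mean of 0.03 ± 0.07 (SD, n = 2 clones; limma adjusted p = 0.855). The directions given for these RNAs therefore rest on their labels and on how the clones were picked, not on this probe. In the A2780s clone the same probe was higher, at 4.05 and 2.60. Of 9 ovarian carcinoma markers, 7 could be tested in SKOV3 and 5 of them were lower in the sh clones, PAX8 (-3.58), KRT18 (-3.52), SOX17 (-2.87), KRT19 (-2.55) and KRT8 (-2.14), each on its brightest probe. The other SOX17 probe tested had a mean of 0.09 (limma adjusted p = 0.532), and those of KRT8 had means of -1.54, which was called, and -0.38, which was not. Their part in the results below was not tested. Of 6 leukocyte markers, 3 could be tested (CD14, CD68 and CD3E), with ratios between -0.24 and 0.05 and no call. PTPRC, which leukocytes express in general, cleared background on 2 of 4 arrays in the Ctrl and in the clones alike. Ctrl and clones each carried Cy3, in which most probes cleared background, on 2 of 4 arrays. A count of 2 of 4 therefore does not by itself show expression. None of the 3 endothelial markers could be tested in SKOV3. All SKOV3 arrays lie on 1 slide that was scanned once, and those of A2780s on a different one, so line and slide cannot be told apart.

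Promoter sequence was at hand for 23 of the 33 members, as RefSeq windows on GRCh38.p14 that run from 250 bases before the transcription start to 50 bases after it. A match to the kappaB consensus, searched on both strands, lay in 10 of these 23 windows (43.5%), against 2075 of all 35116 windows (5.91%). The members were picked as genes of this pathway, so this share is a description of them. The matches of these 10 members are printed because they are the sequence the pathway acts through and because they can be set beside each gene's ratio. Capitals mark the bases that match the consensus on either strand, the sequence is that of the coding strand, and the bases shown all lie upstream of the start.

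NFKBIA, chr14:35404806-35404845, minus strand: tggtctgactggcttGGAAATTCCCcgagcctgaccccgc
TNIP1, chr5:151081052-151081091, minus strand: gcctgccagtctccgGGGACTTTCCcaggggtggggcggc
BIRC3, chr11:102317270-102317373, plus strand: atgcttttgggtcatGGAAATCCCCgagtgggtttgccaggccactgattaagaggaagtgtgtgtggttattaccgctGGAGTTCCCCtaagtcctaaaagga
NFKBIZ, chr3:101849264-101849299, plus strand: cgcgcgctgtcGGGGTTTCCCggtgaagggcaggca
IL6, chr7:22727112-22727151, plus strand: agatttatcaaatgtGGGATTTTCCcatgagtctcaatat
LCN2, chr9:128149263-128149302, plus strand: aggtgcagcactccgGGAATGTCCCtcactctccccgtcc
TNFAIP3, chr6:137867177-137867228, plus strand: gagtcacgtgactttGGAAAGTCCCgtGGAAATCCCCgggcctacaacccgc
NFKB2, chr10:102395669-102395704, plus strand: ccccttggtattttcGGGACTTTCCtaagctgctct
REL, chr2:60881512-60881552, plus strand: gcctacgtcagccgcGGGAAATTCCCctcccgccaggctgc
CCL20, chr2:227813748-227813787, plus strand: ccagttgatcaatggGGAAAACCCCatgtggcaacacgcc

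The closest match to the start was that of NFKB2, at bases -21 to -12, and the farthest printed was that of NFKBIZ, at -239 to -230. The matched stretch read on its G-rich strand was GGGACTTTCC in TNIP1 at -42 to -33, in TNFAIP3 at -67 to -58 and in NFKB2, which also holds a further match at -176 to -167 that is not printed. BIRC3 and TNFAIP3 each hold 2 separate matches, and the matches on the strands of REL overlap over all but 1 base at each end. Other motifs were searched on both strands for comparison: TGANTCA, the AP-1 site, was in the windows of IL1A, IL11 and LCN2 (13% of 23 against 7.71% of all windows), and TATAAA was in those of NFKBIA, CCL20, PTGS2, ICAM1 and CFB (21.7% against 11.5%). A match is a match of letters and does not show that a factor binds there.

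Against the SKOV3 Ctrl, 7 members were lower in the RNAs labelled as knockdown clones and 0 were higher, of 28 that could be tested. The lower members were RELB, TNFAIP2, BIRC3, NFKBIA, TNIP1, C3 and SAA1. Calls required an adjusted p of at most 0.05 from limma, adjusted over all 24956 probes tested, and a mean change of at least 2-fold. At the same thresholds 4.16% of all probes tested were lower and 2.97% were higher. At the adjusted p alone, whatever the fold, 15 members were lower and 1 was higher, against 16.2% and 15.6% of all probes. The ratio was below 0 on 4 of 4 arrays for 19 of the 28, against 19.5% of all probes. The median ratio of the 28 was -0.51, beside 0.00 for all probes. A member was tested if it passed a filter on dim signals: 20 of the 28 entered through both sides (the Ctrl well above background on its 4 arrays, and at least 1 clone on its 2), 6 through the Ctrl alone (BIRC3, SAA1, CFB, LCN2, IL18 and ICAM1) and 2 through a clone alone (CCL5 and CSF1). A member that entered through the Ctrl alone could more readily be lower than higher. Of the 7 lower members, 5 entered through both sides. Under other processing the number of lower members was between 4 (clones in Cy5 alone) and 14 (the processed signals of the scanner software). The p-values rest on the spread between these clones, which limma draws towards one pooled over all probes (5.55 prior degrees of freedom). Both clones face the same Ctrl RNA, so the spread of the Ctrl is left out. The spread between dyes is left out too, since dye-swapped arrays were averaged first. Over all probes, Pearson correlations were 0.58 between the arrays of a clone and 0.87 between clones on the same dye.

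**Figure D1:**
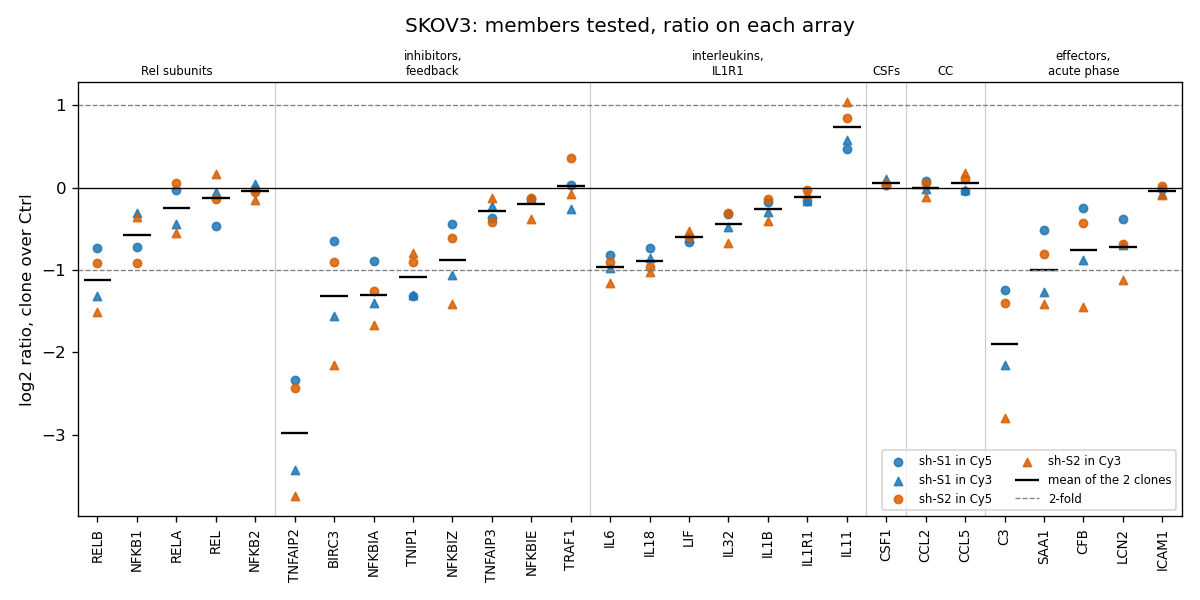
Log2 ratio of sh clone over Ctrl (vertical axis) for the 28 members tested in SKOV3 (horizontal axis, grouped by role and ordered by mean), with 1 point per array, colour for the clone, shape for its dye, a bar for the mean of the 2 clones and dashed lines at 2-fold. TNFAIP2 lies lowest with its 4 arrays between -3.75 and -2.34, and IL11 is the member farthest above 0, at 0.73.

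Among the 5 subunits, RELB stood apart. RELB encodes the activating subunit of the alternative branch of the pathway, and its ratios were -0.74 (sh-S1 in Cy5), -1.32 (sh-S1 in Cy3), -0.92 (sh-S2 in Cy5) and -1.51 (sh-S2 in Cy3). All 4 arrays were on the same side of 0, and the arrays with the clone in Cy3 gave the larger differences. The mean was -1.12 ± 0.13 (SD, n = 2 clones; standard error 0.10; limma adjusted p = 0.000315), which is 2.18-fold more in the Ctrl. With the clones in Cy5 alone the RELB mean was -0.83, short of 2-fold. NFKB1, whose product is cut to the DNA-binding subunit most often paired with RELA, had ratios of -0.72, -0.30, -0.92 and -0.35 in the same order of arrays. Its mean of -0.57 ± 0.09 (SD, n = 2 clones) passed the adjusted p (limma, 0.00462) and fell short of 2-fold.

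RELA, the main activating subunit of the classical branch, was near 0 with the clones in Cy5, at -0.03 and 0.05, and lower with them in Cy3, at -0.45 and -0.55. The mean of -0.24 ± 0.01 (SD, n = 2 clones) had a limma adjusted p of 0.0959. The ratio of REL, a subunit best known from lymphocytes, was -0.46, -0.05, -0.14 and 0.16, so its arrays lay on both sides of 0, and the mean was -0.12. NFKB2, which encodes the partner of RELB, had ratios of -0.02, 0.05, -0.05 and -0.15 and a mean of -0.04 (limma adjusted p = 0.797). The RELB probe lies at chr19:45541385-45541444 on GRCh37, the build of the array files, on the plus strand.

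The list of inhibitors and feedback regulators held the largest number of lower members, 4 of 8. This list is broader than its name, and also holds a target gene (TNFAIP2) and genes of receptor signalling (BIRC3 and TRAF1). TNFAIP2, a gene first described as induced by tumour necrosis factor, had ratios of -2.34, -3.43, -2.43 and -3.75. Its mean was -2.99 ± 0.15 (SD, n = 2 clones; standard error 0.10; limma adjusted p = 6.34e-06), which is 7.93-fold more in the Ctrl. The probe (chr14:103603617-103603676, GRCh37, plus strand) gave signal well above background for each RNA on each of the 6 arrays. No kappaB match was found in the TNFAIP2 promoter window.

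NFKBIA encodes I-kappaB-alpha, the inhibitor that is destroyed on activation and made again afterwards. Its ratios were -0.89 and -1.40 for sh-S1 and -1.26 and -1.67 for sh-S2, and the mean was -1.31 ± 0.23 (SD, n = 2 clones; limma adjusted p = 0.000267), or 2.47-fold more in the Ctrl. The probe (chr14:35870788-35870847, GRCh37, minus strand) was bright in every RNA, and its promoter holds the kappaB match printed above beside a TATAAA match. BIRC3, a ubiquitin ligase of the tumour necrosis factor receptor complex, had ratios of -0.65 and -1.56 for sh-S1 and of -0.91 and -2.15 for sh-S2. The mean was -1.32 ± 0.30 (SD, n = 2 clones; limma adjusted p = 0.000413). For BIRC3 (probe at chr11:102208356-102208415, GRCh37, plus strand) the clones cleared background on 2 of 4 arrays and the Ctrl on 4 of 4. With the clones in Cy5 alone the mean was -0.78 and the 2-fold limit was not reached, whereas on the processed signals of the scanner software it was -3.81.

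TNIP1, which binds A20 and restrains the pathway together with it, differed in pattern from the others. Its ratios were -1.31 and -1.31 for sh-S1 and -0.91 and -0.80 for sh-S2, so the exchange of dyes moved it little and sh-S1 lay lower than sh-S2. The mean was -1.08 ± 0.32 (SD, n = 2 clones), with a limma adjusted p of 0.00111, and in sh-S2 alone the value was -0.85, short of 2-fold. A second TNIP1 probe, between chr5:150415212 and 150416353 (GRCh37, minus strand), gave a mean of -0.06 for sh-S1 and one of -0.19 for sh-S2. That probe was too dim to be tested, while the brighter one at chr5:150409766-150409825 was well above background on every array.

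The other genes of this list changed less or gave no call. NFKBIZ, a nuclear member of the inhibitor family needed for some secondary targets such as IL6, had a mean of -0.88 (limma adjusted p = 0.00117), made up of -0.75 for sh-S1 and -1.01 for sh-S2. TNFAIP3, which encodes the ubiquitin-editing enzyme A20 and has 2 kappaB matches, had a mean of -0.28 (limma adjusted p = 0.0594). It passed the adjusted p, short of 2-fold, on the processed signals (-0.91), with median centring (-0.47) and with the clones in Cy5 alone (-0.39). At the same mean of -0.28 it also passed with no filter on dim probes (limma adjusted p = 0.0442). With the mean over all probes of the gene it passed too (limma adjusted p = 0.0483). With the clones in Cy3 alone (-0.17) or the background fitted on all spots (-0.28) it did not. NFKBIE, a further cytoplasmic inhibitor, had a mean of -0.19, and the mean of TRAF1, an adaptor of receptor signalling, was 0.02. None of these 4 genes was called, but for NFKBIZ this depended on the processing. NFKBIZ was lower past both limits on the processed signals (-2.20), with median centring (-1.22) and with the clones in Cy3 alone (-1.24).

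Among the interleukins and their receptor, no gene of 7 tested was called in either direction, and 5 of them passed the adjusted p without reaching 2-fold. IL6, the best known inflammatory cytokine of ovarian carcinoma, came closest. Its ratios were -0.82 and -0.97 for sh-S1 and -0.91 and -1.16 for sh-S2, a narrow range on both dyes. The mean was -0.96 ± 0.10 (SD, n = 2 clones; limma adjusted p = 0.000521), which is 1.95-fold more in the Ctrl. IL18, a cytokine released after cleavage by inflammasomes, had a mean of -0.89 (limma adjusted p = 0.000864) and IL32 one of -0.44 (limma adjusted p = 0.0126). The absence of calls depended on the processing. On the processed signals of the scanner software IL6 (-1.41), IL18 (-2.86), IL32 (-1.02) and LIF (-1.14) were lower and IL11 (1.67) was higher, and with median centring in place of loess IL6 (-1.16) and IL18 (-1.52) were lower and IL11 (1.02) was higher.

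LIF, a cytokine of the IL6 family, had ratios of -0.66 and -0.61 for sh-S1 and -0.60 and -0.52 for sh-S2, with a mean of -0.60 (limma adjusted p = 0.00351). Its other probe, also tested, had a mean of 0.04 (limma adjusted p = 0.82), so the LIF probes did not give the same result. IL11, of the same cytokine family, went the other way, with ratios of 0.47 and 0.57 for sh-S1 and 0.85 and 1.04 for sh-S2. The mean of 0.73 ± 0.30 (SD, n = 2 clones) passed the adjusted p (limma, 0.00492), and IL11 was the 1 member higher by that measure. Its promoter window held a TGANTCA match and no kappaB match. IL1B had a mean of -0.25 (limma adjusted p = 0.085) and its receptor IL1R1 one of -0.11 on the brighter probe and -0.15 on the other. IL1A was not tested: the Ctrl cleared background on 3 of 4 arrays and the clones on 0 of 4, and the signal of the Ctrl was at least 1.2-fold higher.

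The colony stimulating factors and CC chemokines gave little signal. Of CSF1, CSF2 and CSF3, which drive macrophage and granulocyte growth, CSF1 was the one that could be tested, with a mean of 0.06. Of the leukocyte attractants CCL2, CCL5 and CCL20, CCL2 had a mean of 0.00 and CCL5 one of 0.06. For CCL20, CSF2 and CSF3 the clones cleared background on 2 of 4 arrays each, and the Ctrl on 2, 2 and 3 of 4. Neither side passed the filter, and no test was made. PTGS2, the inducible cyclooxygenase that makes prostaglandins, was not tested for the same reason.

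Complement component C3, the convergence point of the complement pathways and an acute phase protein, was lower in both clones on both dyes. The C3 ratios were -1.24 and -2.16 for sh-S1 and -1.40 and -2.80 for sh-S2. The mean was -1.90 ± 0.28 (SD, n = 2 clones; standard error 0.12; limma adjusted p = 7.77e-05), or 3.74-fold more in the Ctrl. On the processed signals of the scanner software the C3 mean was -3.07. The C3 probe matches sequence between chr19:6679177 and 6679434 (GRCh37, minus strand).

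SAA1, an acute phase apolipoprotein, lay at the 2-fold limit. The SAA1 ratios were -0.51 and -1.27 for sh-S1 and -0.81 and -1.42 for sh-S2, and the mean was -1.003 ± 0.157 (SD, n = 2 clones; limma adjusted p = 0.000567), a 2.00-fold difference. It fell short of 2-fold in sh-S1 alone (-0.89), with the clones in Cy5 alone (-0.66) and with the background fitted on all spots (-0.98). The clones cleared background on 2 of 4 arrays. SAA1 and SAA2 are near-identical copies whose cRNA the probes may not separate, and the SAA2 probe had a mean of -0.82 (limma adjusted p = 0.00195). CFB, the complement factor of the alternative pathway, had a mean of -0.75 (limma adjusted p = 0.0035), and LCN2, an iron-sequestering acute phase protein, one of -0.72 (limma adjusted p = 0.00394), both short of 2-fold. ICAM1, an adhesion receptor for leukocytes and a textbook kappaB target, was at -0.04. For ICAM1, CFB and LCN2, too, the clones cleared background on 2 of 4 arrays.

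Set beside the promoters printed above, the 10 members with a kappaB match held 3 lower members (NFKBIA, TNIP1 and BIRC3), 3 that passed the adjusted p short of 2-fold (NFKBIZ, IL6 and LCN2), 3 that passed neither limit (TNFAIP3, NFKB2 and REL) and CCL20, which was not tested. Of the 13 members whose window held no match, 10 were tested, TNFAIP2 was lower, and 3 passed the adjusted p with lower signal short of 2-fold (NFKB1, IL32 and CFB). RELB, C3 and SAA1 are among the 10 members with no window in the RefSeq table. Members with the same matched letters, TNIP1 on one side and TNFAIP3 and NFKB2 on the other, had ratios of -1.08, -0.28 and -0.04. NFKBIA and REL also share a matched stretch (-1.31 and -0.12), as do BIRC3 and TNFAIP3 (-1.32 and -0.28).

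Levels of single channels show where these differences lie for each RNA. They are log2 signals after normalisation, and can be compared between RNAs for one gene but not between genes. TNFAIP2 lay at 13.03 in the SKOV3 Ctrl (4 arrays), 10.02 in sh-S1 and 10.08 in sh-S2, beside 10.41 in the A2780s Ctrl and 10.10 in pCMV-Hic-5. RELB lay at 11.45 in the SKOV3 Ctrl, 10.42 in sh-S1 and 10.24 in sh-S2, beside 10.80 and 10.50 in the A2780s RNAs. For TNFAIP2, RELB, TNIP1, NFKBIA, C3 and IL6 the lowest array of the SKOV3 Ctrl was above the highest array of the sh clones. These genes were called lower on these same arrays or, for IL6, chosen after their values were seen. The lack of overlap is thus a description and adds no support, and its share among all probes was not computed.

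BIRC3 and SAA1 did overlap once dyes were mixed. The BIRC3 level ranged from 7.91 to 9.40 in the Ctrl and from 6.35 to 8.75 in the clones, and SAA1 ranged from 7.91 to 8.92 in the Ctrl and from 6.62 to 8.41 in the clones. Within each array the clone was below the Ctrl for both genes. C3 in the Ctrl lay at 10.61, above 8.78 in sh-S1 and 8.64 in sh-S2, with 7.62 in the A2780s Ctrl. IL11 showed the opposite order, with 8.07 in the SKOV3 Ctrl, 8.54 in sh-S1, 9.07 in sh-S2, 9.73 in the A2780s Ctrl and 9.84 in pCMV-Hic-5.

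**Figure D2:**
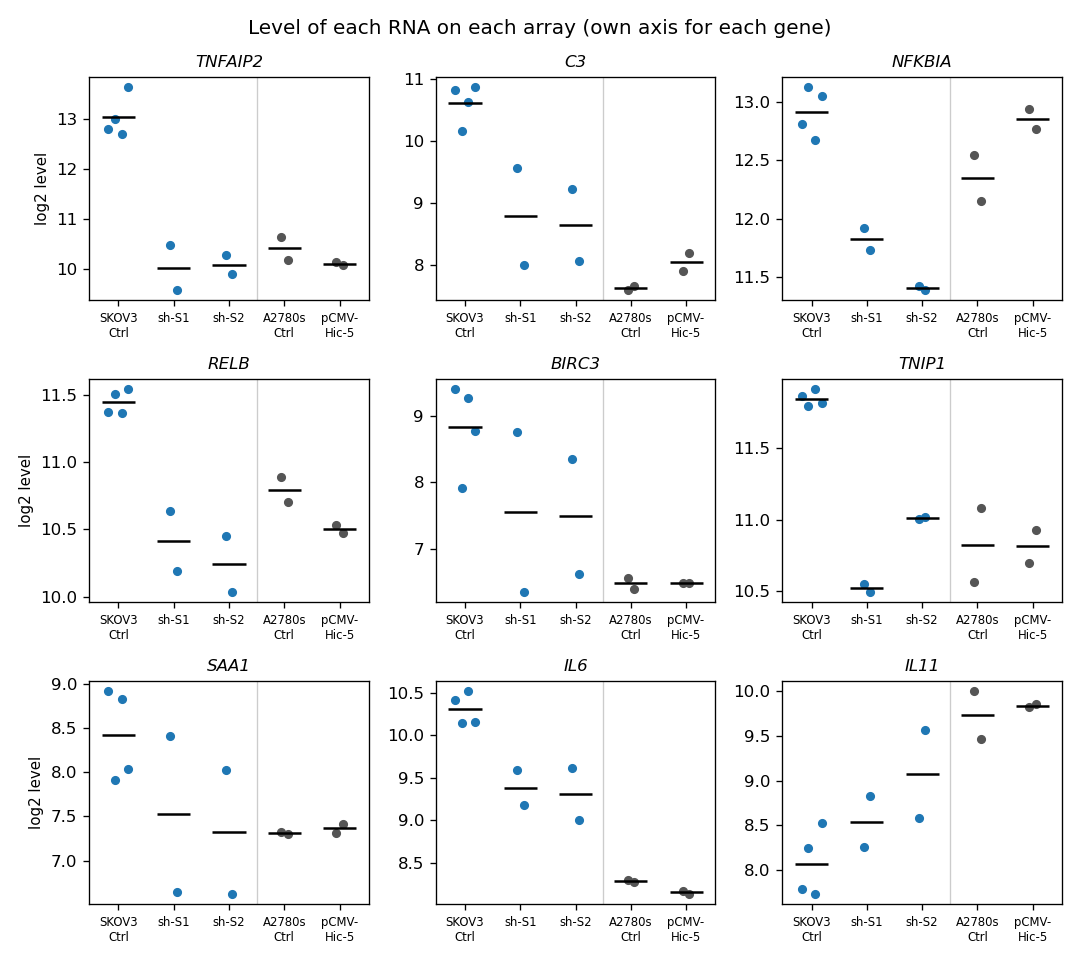
Normalised log2 level (vertical axis, own range for each gene) of 9 members in the 5 RNAs (horizontal axis), with 1 point per array, SKOV3 RNAs in blue, A2780s RNAs in grey and a bar for the mean. The panels show the members called lower in the sh clones, with IL6 and IL11 added after their values were seen. The order of SKOV3 Ctrl and sh clones was therefore set by this choice. The SKOV3 Ctrl has the highest mean of the 5 RNAs in 8 of the panels and the lowest in that of IL11.

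The control clones of both lines differed in these genes. Of 30 members measured, 11 had a level at least 2-fold higher in the SKOV3 Ctrl than in the A2780s Ctrl, and 1, IL11 (difference of -1.66), was at least 2-fold lower. Among all 30784 probes measured, 9.25% were at least 2-fold higher and 8.26% lower. A probe counted as measured if the SKOV3 Ctrl or the A2780s Ctrl cleared background on all of its arrays. The 11 members were C3 (2.99), TNFAIP2 (2.63), BIRC3, IL6 (2.03), IL18 (1.93), CFB, LCN2, IL32 (1.49), NFKBIZ (1.37), SAA1 (1.11) and TNIP1 (1.02), with differences in log2 level in parentheses. For BIRC3, CFB and LCN2 the A2780s Ctrl was not well above background on either array, so the SKOV3 Ctrl was at least 4.93-fold, at least 3.55-fold and at least 3.09-fold higher. For IL18 and IL32 it cleared background on 1 of 2 arrays. BIRC3, CFB, LCN2, IL18 and IL32 were thus measured through the SKOV3 Ctrl alone, where they could more readily be higher than lower. CCL5, CSF1, CSF3 and PTGS2 were measured through the A2780s Ctrl alone. The median difference of the 30 members was 0.67, against -0.07 for all probes. On the processed signals the members' median was 1.23 and that of all probes 0.20. With 1 Ctrl RNA per line and the lines on separate slides, there is no test of these differences.

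The mean level of the sh clones was also set against that of the A2780s Ctrl. Of 26 members measured, 3 were at least 2-fold higher (C3 at 1.09, IL6 at 1.06 and IL32 at 1.05) and 0 were lower, with 4.22% of all 30488 probes higher and 3.27% lower. The median difference was 0.02, against -0.06 for all probes. That closeness to 0 depended on the scaling: on the processed signals the members' median was 0.65, with 8 higher and an all-probe median of 0.16, and with quantile scaling of single channels it was -0.06, with 1 higher. TNFAIP2 (-0.36), RELB (-0.47) and NFKBIA (-0.74) lay below the A2780s Ctrl here, and SAA1 (0.11) and TNIP1 (-0.06) close to it. These differences share the A2780s Ctrl with those of the paragraph above, and are given side by side as values. The sets are unlike, since a probe was measured here if a sh clone or the A2780s Ctrl cleared background on all of its arrays. BIRC3, CFB, LCN2 and IL18, all at least 2-fold higher in the SKOV3 Ctrl, were measured above and not here. The medians of both paragraphs are therefore not of the same members.

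In A2780s, 1 member was higher in the pCMV-Hic-5 clone and 0 were lower, of 25 that could be compared. The higher gene was LIF, with ratios of 0.75 when the clone carried Cy5 and 0.47 when it carried Cy3, and a mean of 0.61. Calls here required a mean of at least 1.5-fold with the same direction on both arrays, without a test, and 3.26% of all 30530 probes were higher and 1.32% lower by that rule. The second LIF probe had a mean of 0.17 and was not called. LIF reached 1.5-fold on 1 of its arrays and fell short of it on the other. With 1.5-fold required on each array, with the background fitted on all spots or with the mean of both probes, LIF was not called.

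NFKBIA came next, with ratios of 0.39 and 0.62 and a mean of 0.51, and then C3, with 0.30 and 0.53 and a mean of 0.41. Both were above 0 on both arrays and short of 1.5-fold. TNFAIP2, the member most lowered in the SKOV3 clones, had ratios of -0.50 and -0.11, and RELB had -0.36 and -0.23. Of the other subunits, NFKB1 had ratios of -0.22 and -0.23, RELA 0.26 and -0.14, REL -0.02 and 0.26, and NFKB2 0.22 and 0.02. The exchange of dyes turned the sign of RELA and REL.

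TNIP1, with a mean of -0.01, SAA1, with 0.05, and IL6, with -0.13, moved little in this line. BIRC3, CFB, LCN2 and IL1A were not well above background in either A2780s RNA. IL18, IL32, CCL20 and CSF2 reached that level on 1 of 2 arrays and were not compared. The median ratio of the 25 members was -0.09, beside -0.01 for all probes. The comparison in A2780s concerns added Hic-5 and that in SKOV3 shRNA against it, and the difference between the lines was not tested.

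**Figure D3:**
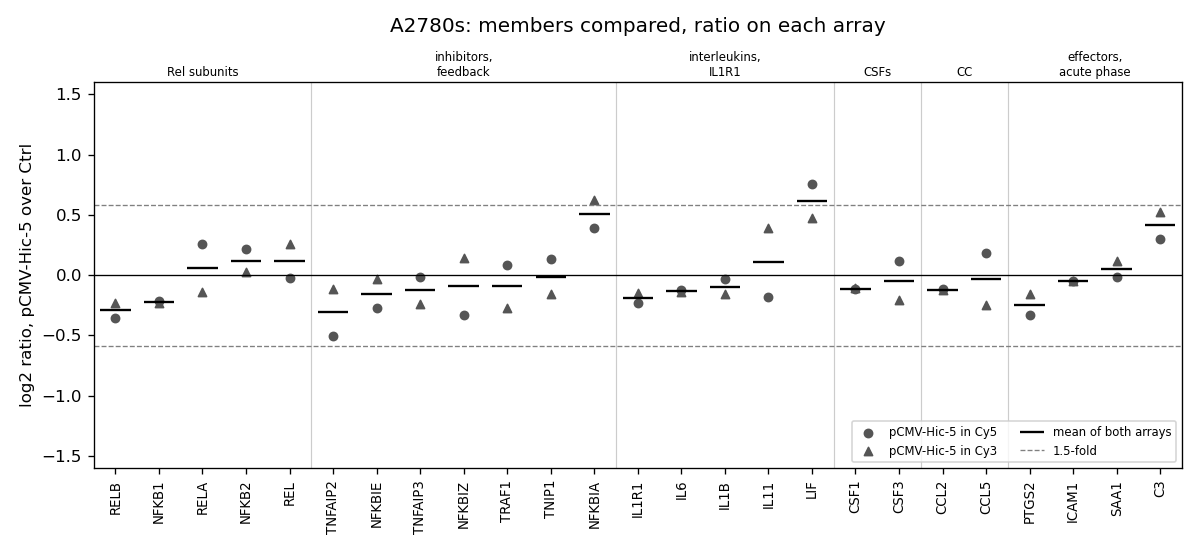
Log2 ratio of pCMV-Hic-5 over Ctrl (vertical axis) for the 25 members compared in A2780s (horizontal axis, grouped by role and ordered by mean), with 1 point per array, shape for the dye of the clone, a bar for the mean and dashed lines at 1.5-fold. LIF is the member whose mean passes the upper line, at 0.61, and the lowest mean is that of TNFAIP2, at -0.31.

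Beyond the members, 91 genes of the pathway were listed by role, and 90 of them are on the arrays. In SKOV3, 68 could be tested, of which 9 were lower and 2 higher in the sh clones, and the median of the 68 was -0.22. The shares of all probes at these limits were 4.16% lower and 2.97% higher. In the list named receptor to IKK signalling, 29 genes were tested and 1 was called, BCL3 (-1.46 ± 0.23, SD, n = 2 clones; limma adjusted p = 0.000168). BCL3 is a nuclear partner of the NFKB1 and NFKB2 products, not a part of the path from receptor to IKK. The kinase subunits IKBKB (-0.29) and CHUK (0.29), the regulatory subunit IKBKG (-0.21), the adaptor MYD88 (-0.03) and the tumour necrosis factor receptor TNFRSF1A (0.07) did not pass the adjusted p. In the same list 8 further genes passed it with lower signal short of 2-fold, among them the lymphotoxin-beta receptor LTBR (-0.67), the interleukin-1 receptor subunit IL1RAP (-0.60) and the kinase IRAK1 (-0.58). With higher signal 2 passed it short of 2-fold, one of them the kinase TBK1 (0.44).

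Of 15 other NF-kappaB target genes tested, 6 were lower and 0 higher. IER3, an early response gene, had ratios of -2.55, -4.26, -2.96 and -4.26, a mean of -3.51 and a limma adjusted p of 3.83e-06. F3, which encodes tissue factor, the initiator of coagulation, had a mean of -2.78. GADD45B, a stress response regulator, had one of -2.09, although its other probe gave -0.47. ZC3H12A, an RNase that degrades cytokine mRNA, was at -1.82, mitochondrial superoxide dismutase SOD2 at -1.79, and BIRC2, the close relative of BIRC3, at -1.53. The ratios of TNF itself averaged -0.35 (limma adjusted p = 0.0276), short of 2-fold.

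Among cytokine receptors and antagonists, 11 were tested, with 2 higher and 1 lower. CCR1, a receptor for CC chemokines including CCL5, was higher on every array, from 2.25 to 2.92, with a mean of 2.62 (limma adjusted p = 9.17e-06) on its brighter probe. The other CCR1 probe, also well above background on all 4 arrays, had a mean of 0.12 (limma adjusted p = 0.454), so the CCR1 probes did not give the same result. IL11RA, the receptor of IL11, had a mean of 1.34 (limma adjusted p = 0.000397) on its brighter probe and one of 0.40 (limma adjusted p = 0.0205), short of 2-fold, on the other, and it was not called on the mean of both (0.87). By contrast, LIFR, the receptor of LIF, was lower at -1.52. IL6ST, the signalling subunit that the receptors of IL6, IL11 and LIF share, had a mean of -0.95 and was not called.

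Of 13 genes of complement and the acute phase tested, 1 was lower and 0 were higher. The lower gene was CD59, which blocks the terminal complement complex, with ratios of -0.45 and -0.88 for sh-S1, -1.18 and -1.67 for sh-S2, and a mean of -1.04 (limma adjusted p = 0.00478). Of the other CD59 probes tested, one had a mean of -1.88 and was called, and one of -0.59 was not. In A2780s, 72 genes of these lists could be compared, with 4 higher, GADD45B (1.02), NFKBIB (0.72), IL6R (0.64) and IRAK4 (0.63), and 0 lower, beside 3.26% of all probes higher and 1.32% lower. The NFKBIB arrays were unequal, at 1.18 for Cy5 and 0.26 for Cy3 as the dye of the clone, and its other probes had means of 0.67, which was called, and 0.05, which was not. The other IRAK4 probe, at 0.43, was not called. GADD45B was thus lower in the SKOV3 clones and higher in the A2780s clone, on both of its probes in the latter line.

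**Figure D4:**
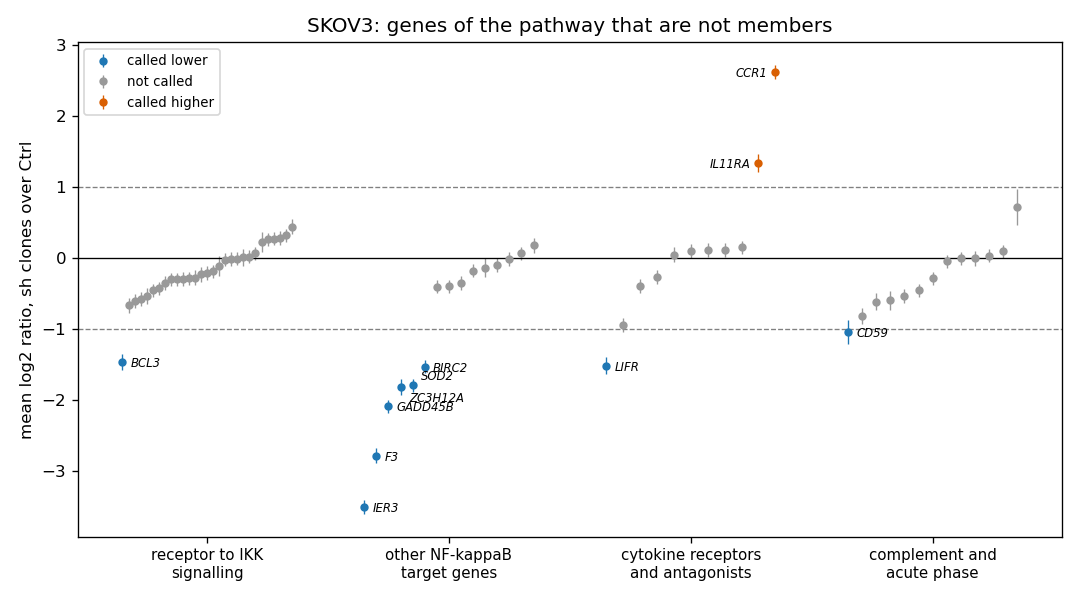
Mean log2 ratio of the sh clones over Ctrl in SKOV3 (vertical axis) for 68 pathway genes that are not members, in 4 lists (horizontal axis, ordered by value within each list), with error bars of 1 limma standard error, dashed lines at 2-fold and called genes named. The list of other target genes holds 6 of the 9 lower genes, with IER3 lowest at -3.51, and the brighter CCR1 probe is highest at 2.62.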

How the data were processed

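The members and the gene lists were chosen with earlier results of these data known. The authors deposited spot intensities of 6 Agilent arrays with 45015 spots (41000 probes) as Feature Extraction wrote them, version 10.7.3.1 per the file headers and 8.5.1.1 per the labels, with mean intensity and median local background of each dye. The deposited files also hold processed intensities and log10 ratios of Cy5 over Cy3, which the authors' software corrected and normalised between dyes. Low values there are surrogates. The deposited series table holds the same log10 ratios, with a largest difference of 0.00499 and column medians of 0 to 0.00139, not turned on the dye-swapped arrays.

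Mean intensities were background-corrected with normexp and an offset of 50, and spots with a local background over 1000 were left out. Ratios were normalised by loess within arrays (limma 3.58.1, R 4.3.3, data.table version 1.17.8), control spots (1639) and outlier spots were dropped, and spots of a probe were averaged. The dyes in the labels gave each ratio its direction, modified clone over Ctrl. Dye-swapped arrays were averaged, and the means of the 2 SKOV3 clones were fitted with lmFit and eBayes and compared with 0, with Benjamini-Hochberg adjustment. Nothing in the labels says that the RNAs came from separate cultures of one clone. A probe entered when a line's Ctrl cleared background (Feature Extraction's flag for signal well above background) on each of its arrays, or when a modified clone did so on its 2 arrays. Channel levels were scaled between arrays by Aquantile. The number of arrays and the dim Cy5 channel limit the precision. The test functions were tested on simulated data. A bound sets the dim RNA to no less than the lowest signal of a probe well above background on that array.

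All members are accounted for, and values of every array are given for members called in either line and for the Rel subunits. Pathway genes are named when called, at most 6 a direction and line. A gene of these lists is not reported here. In SKOV3 this rule gave IER3, F3, GADD45B, ZC3H12A, SOD2 and BIRC2 as lower. The remaining ones named (BCL3, LIFR, CD59, the IKK subunits, MYD88, TNFRSF1A, LTBR, IL1RAP, IRAK1, TBK1, TNF, IL6ST and SAA2), and the array values of IL6 and IL11, were chosen after their values were seen. In 40 of the 42 member probes the accession led to the same symbol among RefSeq genes, and the file's name was kept for a probe of REL and a probe of CSF1.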

Additional observations from a re-analysis of the deposited data

How the results depend on the processing

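Alternatives moved the number of members called more than their direction. In SKOV3, 7 members were lower and 0 higher as reported, against 14 and 1 by Feature Extraction's own processed signals and 12 and 1 with median centring in place of loess; the 1 higher was IL11. By these settings 2355 and 1579 of all probes were lower, against 1037, and 1964 and 826 higher, against 742. With the clones in Cy5 alone, 4 members were lower, since RELB (-0.83), BIRC3 (-0.78) and SAA1 (-0.66) fell short of 2-fold. Fitting the background on all spots left SAA1 (-0.98) out. Leaving out 1 clone gave 6 to 8 lower members (0 higher) and 8 to 10 lower pathway genes. With 1 clone left no test is possible, and the 2-fold limit was applied by itself. By these rules TNFAIP2, C3 and NFKBIA were called in every one of these settings, and TNIP1 in all but sh-S2 alone. For pathway genes the lower count of 9 became 20 on the processed signals, and the higher count of 2 became 1 with the mean over all probes of a gene, where IL11RA (0.87) was lost.

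In A2780s the 1 higher member, LIF, was lost (0 called) with the background fitted on all spots, with 1.5-fold required on each array and with the mean over all probes. With the clone in Cy3 alone LIF (0.47) was not called and NFKBIA (0.62) was. Counts over all A2780s probes ranged from 495 to 1795 higher and from 123 to 1516 lower, against 994 and 403. For levels, the processed signals at the same 75th percentile gave 19 members higher in the SKOV3 Ctrl instead of 11, and 8 instead of 3 for the sh clones, which single-channel quantile scaling put at 1. In SKOV3, values of 7 members turned sign under some setting, all within -0.17 and 0.06 after the turn and without a call: RELA 0.0134 with the clones in Cy5 alone, REL 0.0546 and TRAF1 -0.17 with them in Cy3 alone, ICAM1 0.0025 in Cy5 alone, and CCL2 0.0104 on the processed signals, 0.0002 with all spots, 0.0101 with median centring and 0.0641 in Cy5 alone, and, in sh-S1 or sh-S2 alone, NFKB2, REL, TRAF1, CCL2 and CCL5. In A2780s those of 9 members did, to between -0.18 and 0.19 (RELA, REL, NFKBIZ, TNIP1, TRAF1, IL11, CSF3, CCL5 and SAA1). Of the other changes in SKOV3, 17 brought a member past the limits in its reported direction and 4 took one below them. The cause was not tested. Clone and Ctrl were paired on each array, and the ratios use that pairing. No further pairing between groups was possible because the labels give no replicate numbers that the groups share. The slide could not be fitted as a block, since each line lies on its own slide.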
